A study of Mus musculus with 6 samples.

Results

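The placental cathepsins of the mouse are 8 genes, Cts3, Cts6, Cts7, Cts8, Ctsj, Ctsm, Ctsq and Ctsr, that lie side by side on chromosome 13. They were taken by gene name from the non-control probes of 6 single-colour Agilent arrays, which gave 1 probe for each gene, 8 of 41174 probes and 8 of 27597 genes in all. The arrays compared RNA from sorted epithelial cells of C57BL/6 mice, 3 arrays of ThymusEC and 3 of ThyroidEC. ThymusEC were cells of the thymic medulla gated as Epcam+ UEA1+ CD45- Fluorogold-, where Epcam is an epithelial adhesion protein, UEA1 a lectin, CD45 the surface protein of blood cells and Fluorogold a dye that enters dead cells. Thymic replicates 1 and 2 each came from 6 pooled thymi and thymic replicate 3 from 2. ThyroidEC were gated as Epcam+ CD45- Fluorogold-, without the lectin, from 20 pooled thyroids for each of the 3 replicates. The labels give neither an age nor a treatment.

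Placental cathepsins belong to the papain family of cysteine proteases and resemble cathepsin L, the lysosomal protease that most cells make. The group arose by gene duplication in rodents and is known from the placenta, where its members are made by trophoblast, the cell lineage through which the embryo contacts the mother. Like cathepsin L, they are made as inactive precursors whose propeptide blocks the active site until it is cleaved. Neither the thymus nor the thyroid is a tissue for which these proteases are known, but medullary thymic epithelial cells are known to transcribe many genes that are otherwise restricted to single tissues, in part through the regulator Aire.

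The genes have separate start sites, and 6 sequences that lie just before such starts are shown. They let members be set beside each other and beside a neighbouring gene, Tpbpa, that is related to the cathepsin propeptide. Each is the 120 bases before the start from RefSeq (build GRCm38.p6), 5′ to 3′, with the motifs TTTAAA and CCAAT in capitals. TTTAAA reads the same on both strands, and CCAAT was looked for on both. Ctsq is the member with the largest difference between the groups, Ctsr and Cts6 follow it along the chromosome, Ctsm and Cts3 are the closest pair, and Tpbpa is a trophoblast gene next to the group.
Ctsq (chr13:61040598-61040717, minus strand): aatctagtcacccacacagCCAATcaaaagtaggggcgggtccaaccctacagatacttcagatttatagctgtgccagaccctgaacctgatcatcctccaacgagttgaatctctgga
Ctsr (chr13:61164189-61164308, minus strand): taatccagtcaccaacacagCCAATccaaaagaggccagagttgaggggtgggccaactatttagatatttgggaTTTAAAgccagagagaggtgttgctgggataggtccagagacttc
Cts6 (chr13:61203393-61203512, minus strand): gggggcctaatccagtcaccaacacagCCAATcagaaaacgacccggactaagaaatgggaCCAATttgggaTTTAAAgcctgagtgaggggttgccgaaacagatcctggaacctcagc
Ctsm (chr13:61541840-61541959, minus strand): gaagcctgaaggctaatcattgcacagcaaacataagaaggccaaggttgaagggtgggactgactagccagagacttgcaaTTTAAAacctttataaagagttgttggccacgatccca
Cts3 (chr13:61570128-61570247, minus strand): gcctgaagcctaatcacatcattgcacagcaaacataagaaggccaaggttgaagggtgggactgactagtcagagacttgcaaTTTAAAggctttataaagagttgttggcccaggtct
Tpbpa (chr13:60941937-60942056, minus strand): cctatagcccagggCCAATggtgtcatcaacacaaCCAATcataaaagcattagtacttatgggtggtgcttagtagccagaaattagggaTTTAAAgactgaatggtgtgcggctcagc

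The motif TTTAAA, which was picked after the sequences had been read, lay within 100 bases before the start in 7 of 8 members and was not in that window of Ctsq. Among 32851 mouse promoters in the table, 4.39% held it in this window, and 12.1% held it in the 250 bases before the start. Its first base was at position -29 in Cts8 and Ctsj, -30 in Cts7, -36 in Cts3, -38 in Ctsm, -45 in Ctsr and -48 in Cts6, counted back from the start. Tpbpa and its copy Tpbpb both held it at position -29. None was found in the same window of Ctsl, Ctla2a, Ctla2b or Ctsll3, the last of which was higher in thymic cells (below). The starts are those listed by RefSeq, and whether transcription begins at them, that of Ctsl included, was not tested. CCAAT stood in the 250 bases before the start in 7 of 8 members, against 33.8% of all promoters, and within 100 bases in 4 of 8, against 18.9%. These matches describe letters in a window, and members that arose by duplication are not independent examples.

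Over the 250 bases before the start, the 28 pairs of members shared 48.8% to 90.6% of aligned columns, with a median of 57.1%. The highest value belonged to Ctsm and Cts3, and the next, 67.2%, to Cts6 and Ctsr. Against Ctsl, the gene of cathepsin L itself, the 8 members shared 47.3% to 51.4%, and against Tpbpa 53.1% to 59.1%. Against Ctla2a they shared 48.8% to 52.8%. Unrelated promoters were not aligned as a background, so how far these shares exceed those of unrelated sequence was not tested. Ctsm and Cts3 were the 2 members with signal well above background on any thyroid array, as the values below show. Cts3 had it on 1 thyroid array and also on 1 thymic array. A link between likeness in this stretch and these signals was not tested.

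**Figure D1:**
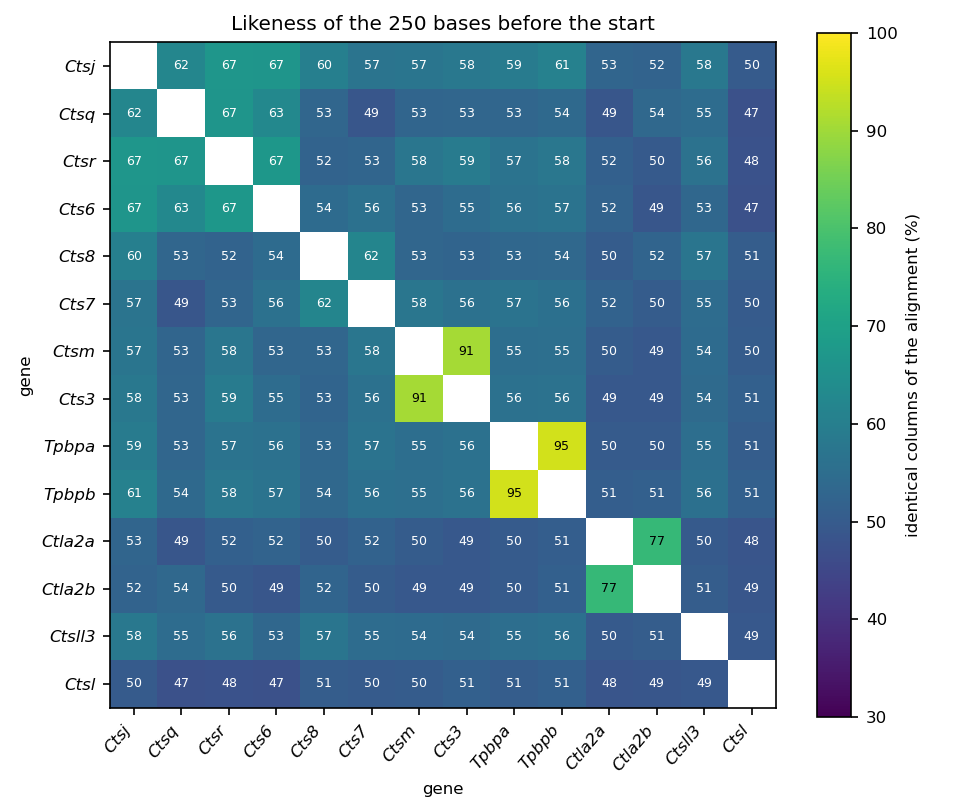
Likeness of the 250 bases before the start of the 8 members and of 6 neighbouring or related genes, as the percentage of identical columns in a global alignment of each pair. Ctsm and Cts3 stand apart among the members at 90.6%, and Tpbpa and Tpbpb share 95.2%.

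The array signals were faint. Signals below are background-subtracted intensities as the scanner software gave them, and a spot counted as well above background where the software's flag said so. A weaker flag, positive and significant, is also the software's own. A raw signal over the local background was not enough for this weaker flag. On thyroid replicate 2, Cts3 failed it with a raw signal of 20.7 over a local background of 8. Where a spot failed it, the software wrote a small surrogate in place of a measured signal. The lowest signal flagged as well above background was between 8.88 and 10.2 on the thymic arrays and between 7.49 and 11.1 on the thyroid arrays, while each array's 75th percentile of signal was 636 to 722 in the thymic group, against 446 to 761 in the thyroid group.

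All 8 members had the weaker flag on all 3 thymic arrays, as did 86.2% of all probes. On no thyroid array did 3 of them (Cts8, Ctsj and Ctsq) have it, a pattern that 4.55% of all probes showed. Of the 24 values on thyroid arrays 16 were surrogates, and of the 24 on thymic arrays 0 were. Well above background on all 3 thymic arrays and on no thyroid array were 4 members, Cts6, Cts7, Ctsq and Ctsr, against 7.73% of all probes. Per array, 6, 5 and 5 members were well above background on thymic replicates 1 to 3, where 81.0%, 79.2% and 78.4% of all probes were. On thyroid replicates 1 to 3 it was 1, 0 and 2 members, against 70.4%, 65.4% and 72.8% of all probes. Summed over the 8 probes, the signal came to 244, 142 and 174 in the 3 thymic samples, against 33.2, 23.9 and 38.1 in the 3 thyroid samples, surrogates included.

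**Figure D2:**
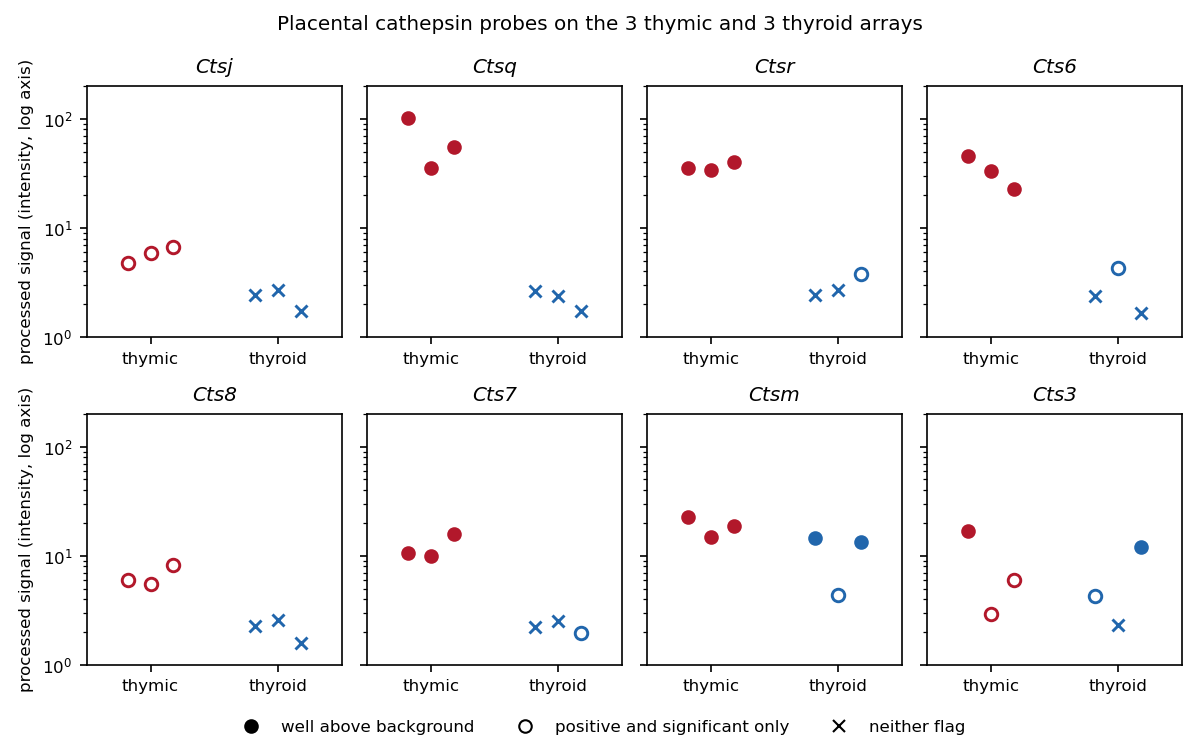
Background-subtracted signal (intensity, log axis) of each placental cathepsin probe, genes in genome order, with 1 point per array and thymic arrays left of thyroid arrays. Filled circles are well above background, open circles are positive and significant only, and crosses are surrogates; filled circles stand on all thymic arrays for Ctsq, Ctsr, Cts6, Cts7 and Ctsm.

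For the test, log2 signals were scaled by subtracting each array's 75th percentile, and a gene was tested if its probe had the flag on each array of one group or the other. By this rule 5 of the 8 members were tested, all of them admitted by the thymic arrays, and Cts3, Cts8 and Ctsj were not. limma with Benjamini-Hochberg adjustment over 21395 genes called 5 of the 5 higher in thymic cells at a threshold of 0.05 and 0 lower, though Ctsm turned below 0 with quantile normalization. Of all genes tested, 69.8% were called, 39.3% higher in thymic cells and 30.5% lower. Of those admitted by the thymic arrays alone, 88.9% were called higher, and of those with the flag on 3 thymic and 0 thyroid arrays 99.6%, so a call adds little to the detection flags. The median difference of all genes tested was 0.10. The submitters call the replicates independent, and p-values set a difference against the spread between these pools. For the members, 16 of the 24 values on thyroid arrays were surrogates, whose spread is not one of measured signal.

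Ctsq, which in the mouse placenta marks giant cells that line the maternal blood spaces of the labyrinth, was measured on all 3 thymic arrays and on no thyroid array. Its signal was 102, 35.3 and 55.1 on thymic replicates 1 to 3, against surrogates of 2.63, 2.39 and 1.75 on thyroid replicates 1 to 3. Every thymic array was far above every thyroid array, and thymic replicate 1 stood highest. The scaled level was -3.53 ± 0.70 in thymic cells and -8.10 ± 0.52 in thyroid cells (SD, n = 3 each), and the limma difference of 4.58 (SE 0.40) had an adjusted p of 6.77e-05. Since the thyroid side is below background, the fold is given as a bound, at least 5.68-fold higher in thymic cells. It sets the thymic mean against a floored thyroid mean. In the latter, each array takes the lowest signal well above background or the probe's own, whichever is higher. Here and below, a bound or a fold of at least some size is such an estimate, not a strict limit. The floor is not a detection limit. On thyroid replicate 1 it was 9.73, yet a probe of Ptprc, the gene of CD45, lacked the flag at 12.3. With dim arrays raised to this floor, the difference of Ctsq was 2.51 (limma confidence interval 1.49 to 3.52).

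Ctsr encodes cathepsin R, a member with no more specific role assigned here. Its signals of 35.3, 34.2 and 40.5 on the thymic arrays had the smallest spread among thymic replicates of all members, against 2.42, 2.70 and 3.81 on the thyroid arrays. The groups did not overlap, and only thyroid replicate 3 passed the weaker flag on the thyroid side. The scaled level was -4.20 ± 0.20 in thymic cells and -7.71 ± 0.51 in thyroid cells (SD, n = 3 each), at least 3.57-fold higher in thymic cells (limma adjusted p = 3.10e-05).

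Cts6, the next gene along the chromosome, had signals of 45.3, 33.6 and 23.0 on the thymic arrays, against 2.37, 4.31 and 1.68 on the thyroid arrays. Here the thymic replicate of 2 pooled thymi was the lowest of its group, and thyroid replicate 2 was the only thyroid array with the weaker flag. The scaled level was -4.36 ± 0.40 in thymic cells and -7.89 ± 1.04 in thyroid cells (SD, n = 3 each), at least 3.19-fold higher in thymic cells (limma adjusted p = 7.95e-04).

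Cts7 encodes a protease made in the ectoplacental cone, the early trophoblast of the mouse. It was close to the limit of the arrays, with signals of 10.6, 9.96 and 15.7 on the thymic arrays, against 2.23, 2.52 and 1.96 on the thyroid arrays. The groups did not overlap, but 2, 3 and 0 of the 153 negative control spots on the 3 thymic arrays were as bright as Cts7 or brighter. The scaled level was -5.83 ± 0.42 in thymic cells and -8.10 ± 0.55 in thyroid cells (SD, n = 3 each), and the difference of 2.27 (SE 0.32) had a limma adjusted p of 7.12e-04. The bound was 1.15-fold, and under 1 without thymic replicate 3, and with dim arrays raised to the lowest signal well above background the difference was 0.21 (adjusted p = 0.615).

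Ctsm, which encodes cathepsin M, was the only member tested with signal well above background on thyroid arrays. Its signals were 22.8, 14.9 and 18.7 on the thymic arrays, against 14.5, 4.36 and 13.5 on the thyroid arrays, where replicate 2 fell short of the flag. Thymic replicate 2 and thyroid replicate 1 were nearly level in raw signal, and after scaling the groups did not overlap. Negative control spots as bright as Ctsm or brighter numbered 1, 3 and 0 of 153 on thymic replicates 1 to 3. The scaled level was -5.18 ± 0.25 in thymic cells and -6.01 ± 0.58 in thyroid cells (SD, n = 3 each), a log2 difference of 0.83 or 1.77-fold with a limma adjusted p of 0.0442. Without thymic replicate 1 the log2 difference was 0.73 (adjusted p = 0.125), without replicate 2 0.97 (0.0508) and without replicate 3 0.78 (0.114). The call held under 8 of 21 other settings, and under quantile normalization the difference was -0.49 (adjusted p = 0.132).

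Cts8, which is known from trophoblast like Cts7 and lies next to Cts6, stayed below the flag everywhere. Its signals were 5.94, 5.52 and 8.22 on the thymic arrays, against surrogates of 2.25, 2.58 and 1.59 on the thyroid arrays. Ctsj, which encodes cathepsin J of the placental labyrinth, gave 4.75, 5.93 and 6.72 on the thymic arrays, against surrogates of 2.46, 2.68 and 1.74 on the thyroid arrays. For both genes the thymic arrays were higher than the thyroid arrays without overlap, and all 6 arrays lacked the flag, so no fold is given. Negative control spots as bright as Cts8 or brighter numbered 4, 4 and 0 of 153 on thymic replicates 1 to 3. For Ctsj they numbered 4, 3 and 0. With no filter on faint probes, limma called 6 of the 8 members higher in thymic cells, against 31.4% of all genes, with adjusted p-values of 0.0147 for Cts8 and 0.0260 for Ctsj.

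Cts3 did not separate the groups. Its signals were 16.9, 2.91 and 6.03 on the thymic arrays, against 4.29, 2.34 and 12.1 on the thyroid arrays, and the flag was set on thymic replicate 1 and on thyroid replicate 3. With no filter, its difference was 0.29 with a 95% interval of -1.50 to 2.08 (limma adjusted p = 0.755). With no filter, the thymic arrays were higher than the thyroid arrays without overlap for 7 of the 8 members, which was so for 35.3% of all genes. In bulk samples such as these, fewer cells that make a transcript and less of it per cell cannot be told apart.

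Levels of different probes are not comparable, but the differences can be set in order. They ran from Ctsq (4.58) through Cts6 (3.53), Ctsr (3.51) and Cts7 (2.27) to Ctsm (0.83), and the 95% intervals of neighbours in this order overlapped in every case. These sizes depend on how faint signals are treated, since the thyroid side of the first 4 consists of values below background. With dim arrays raised to their floor, 3 of the 5 tested members were called, with differences of 2.51 for Ctsq, 1.83 for Ctsr and 1.67 for Cts6. With normexp background correction and an offset of 50, which pulls faint signals together, 2 of the 5 were called, Ctsq at 1.02 (adjusted p = 0.00394) and Ctsr at 0.51 (adjusted p = 0.0303). Across all genes tested, 37.3% and 30.7% were called higher in thymic cells under these settings.

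**Figure D3:**
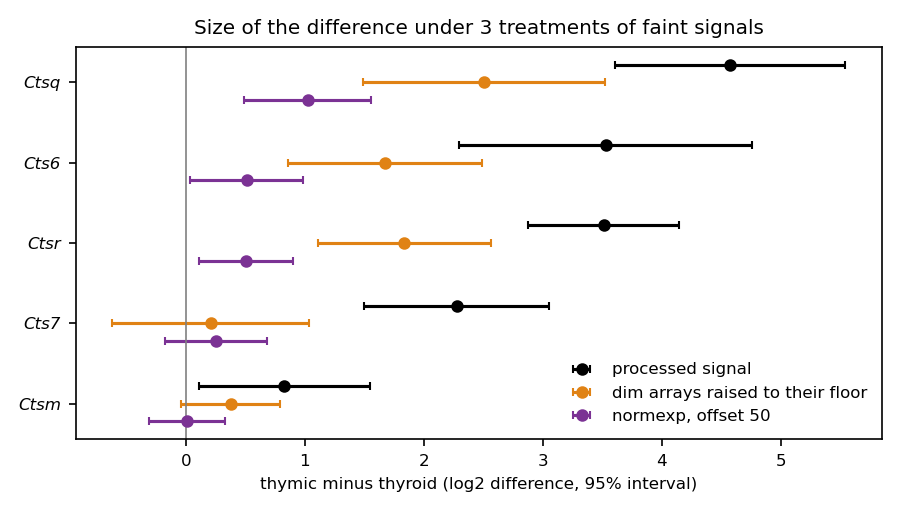
Thymic minus thyroid difference (log2) of the 5 tested members with 95% intervals, from the processed signal, with dim arrays raised to their floor, and with normexp correction. Ctsq, Ctsr and Cts6 stay right of 0 under each, though Cts6 with normexp has an adjusted p of 0.0623, and Cts7 and Ctsm reach 0 in the floored and normexp fits.

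The arrays of the 2 groups were not spread evenly over slides. Slide 1 held the 3 thymic arrays and thyroid replicate 1, and slide 2 held thyroid replicates 2 and 3. The 5 tested members were all admitted by the thymic arrays, which all lie on slide 1. Of all genes admitted by the thymic arrays alone, 88.9% were called higher in the fit of all 6 arrays. That share was not computed within slide 1, so the count of members called there cannot be separated from this filter. Within slide 1 the differences were 4.65 for Ctsq (limma adjusted p = 0.00137), 4.10 for Ctsr (5.56e-05), 3.97 for Cts6 (4.01e-04), 2.59 for Cts7 (0.00205) and 0.53 for Ctsm (0.0888). With the slide as a block the differences had to be the same. Slide 2 holds thyroid arrays alone, so that only slide 1 compares the groups. In that fit the limma adjusted p-values were 0.00184, 5.07e-05, 0.00666, 0.00535 and 0.323 in that order of genes. Thus 4 of the 5 members were called higher within slide 1, against 39.6% of all genes tested there, where limma takes the spread of the lone thyroid sample to equal that of the thymic samples.

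The members share their neighbourhood. The array files place all 8 probes on the minus strand of chromosome 13 in build mm8, from Ctsj at chr13:61013718-61014086 to Cts3 at chr13:61574373-61574432, a stretch of 561 kb. These positions are not comparable with those of the promoters, which are of another build. The probe of Ctsj spans 369 bases of genome for its 60 bases, so that its ends lie apart in the genome, and the files do not say whether the other probes lie in coding sequence or in a UTR. In RefSeq order, 14 genes run from the first to the last member, 8 members and 6 pseudogenes, and none of the pseudogenes had a probe. The probes held 21 to 27 G or C of 60 bases, and no run longer than 11 bases was shared between member probes. Cross-reading between these related transcripts, or from the pseudogenes, was not tested.

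On the side of Ctsj, 6 further genes with a probe were tested, and they differed in both directions. Tpbpa, a marker of the spongiotrophoblast layer of the placenta, had signals of 12.96, 31.1 and 16.4 on the thymic arrays, against surrogates of 2.55, 2.70 and 1.98 on the thyroid arrays, which gave a lower bound of at least 1.83-fold (limma adjusted p = 8.06e-04). Its copy Tpbpb was at least 1.11-fold higher (adjusted p = 0.00139), and neither was called with dim arrays raised to their floor. Negative control spots as bright as Tpbpb or brighter numbered 2, 3 and 0 of 153 on thymic replicates 1 to 3. For Tpbpa they numbered 2, 0 and 0. Ctsll3, a cathepsin L-like gene, had signals of 82.2, 75.3 and 54.3 on the thymic arrays, against surrogates of 2.30, 2.69 and 1.75 on the thyroid arrays. Against the floor it was 6.78-fold higher in thymic cells (limma adjusted p = 1.81e-05 without the floor).

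Ctla2a and Ctla2b, which lie between these genes and encode inhibitors that resemble the propeptide of cathepsin L, went the other way. Ctla2a had signals of 180, 209 and 133 on the thymic arrays, against 33152, 19648 and 25846 on the thyroid arrays, which is 165-fold higher in thyroid cells (limma difference -7.36, adjusted p = 3.97e-07). Ctla2b was 159-fold higher in thyroid cells. The Riken gene 4930486L24Rik had its higher probe 17.97-fold higher in thyroid cells (adjusted p = 2.42e-05). BC051665, the third cathepsin-like gene listed with these, gave -0.12 (adjusted p = 0.682), but -0.65 (0.0423) with median centring and -0.64 (0.0441) in the authors' deposited value table.

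**Figure D4:**
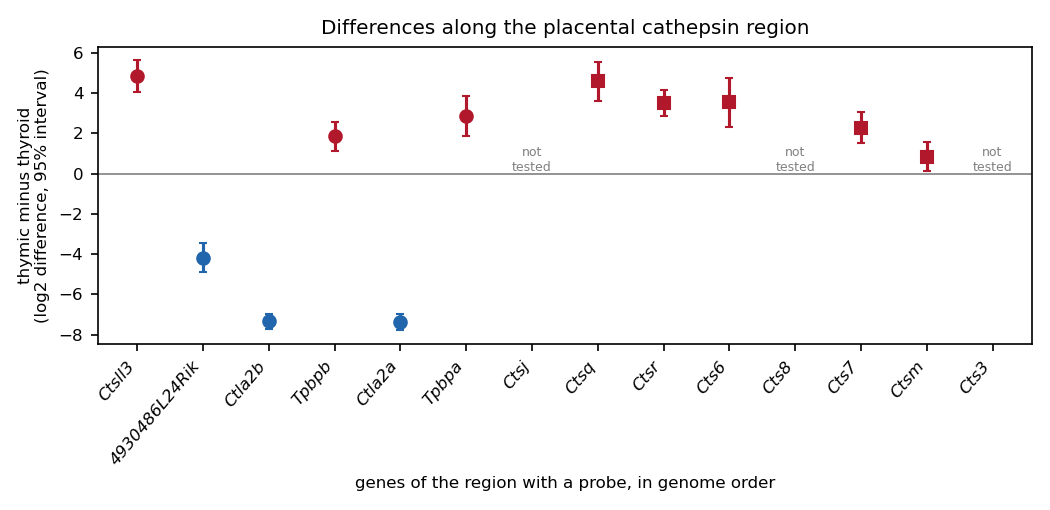
Thymic minus thyroid difference (log2, 95% interval) of the genes of the region that have a probe, in RefSeq order; squares are placental cathepsins, circles are neighbours, red is higher in thymic cells and blue lower. The 5 tested members stand above 0 (Ctsm below it with quantile normalization), and Ctla2a and Ctla2b, at -7.36 and -7.32, stand below 0, as does 4930486L24Rik beside Ctla2b at -4.17.

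Ctsl, the gene of cathepsin L, was far above background in both groups, with signals of 42860, 65571 and 51584 in the thymic samples, against 63183, 43156 and 62623 in the thyroid samples. The groups overlapped and the difference was -0.22 (95% interval -0.69 to 0.26, limma adjusted p = 0.367). With median centring it was -0.75 (adjusted p = 0.0118) and in the authors' deposited value table -0.74 (0.0121), each a call towards the thyroid. Of all genes tested, 39.3% were called higher in thymic cells and 30.5% lower. Of 14 lysosomal cathepsins, Ctsl among them, 6 were called higher in thymic cells and 5 lower, with a median difference of 0.31. Higher were Ctss (4.40), a cathepsin of antigen-presenting cells, Ctsg (3.30), a serine protease of neutrophils, and Ctse (2.37), an aspartic protease. Lower were the aspartic protease Ctsd (-2.28) and the cysteine proteases Ctsb (-1.70) and Ctsf (-1.44). The 5 tested placental cathepsins had a median of 3.51, and all 8 with no filter a median of 1.88, but the 5 were admitted to the test by the thymic arrays alone, while 13 of the 14 lysosomal cathepsins were well above background on all 3 thyroid arrays too.

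Other genes known from the placenta were listed to set the members beside them. Of all genes tested, 39.3% were called higher in thymic cells, and 88.9% of those admitted by the thymic arrays alone. Of 22 placental hormones of the prolactin family on the array, 10 were tested and all 10 were called higher in thymic cells, with a median of 3.54. Of these 10, 7 passed the filter through the thymic arrays alone, and with no filter 12 of the 22 were called higher, against 31.4% of all genes. Prl2a1 was at least 22.2-fold higher, Prl3d2, a placental lactogen, at least 8.70-fold and Prl7d1 at least 8.05-fold, or at least 4.68-fold without thymic replicate 3 and at least 13.2-fold without thymic replicate 1. Of 15 pregnancy-specific glycoproteins and related Ceacams on the array, 9 of 10 tested were called higher, with a median of 3.19. With normexp correction 3 of these 10 were called higher, and 9 of the 10 hormones, against 30.7% of all genes tested. Among the 10 glycoproteins and Ceacams tested, 9 passed the filter through the thymic arrays alone, and with no filter 10 of the 15 were called higher. Ceacam15 was at least 41.3-fold, Ceacam11 at least 8.26-fold and Psg16 at least 3.81-fold higher, and Psg17 was lower in thymic cells (-0.41, adjusted p = 0.0166).

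Of 16 trophoblast genes on the array, among them Tpbpa and Tpbpb, 9 of 14 tested were called higher and 3 lower, with a median of 2.83. Through the thymic arrays alone, 8 of the 14 passed the filter, and of all genes that did so 88.9% were called higher. With normexp correction 7 of the 14 were called higher, against 30.7% of all genes tested. The transcription factor genes Cdx2, of early trophoblast, and Hand1, of giant cells, were at least 21.96-fold and at least 7.82-fold higher, and Rhox6 was at least 9.46-fold higher. Lower in thymic cells were Esrrb (-2.40), a nuclear receptor of trophoblast stem cells, and the imprinted genes Phlda2 (-1.68) and Peg10, which was not well above background on any thymic array (at least 2.94-fold higher in thyroid cells). The direction was thus not shared by every placental gene. These 3 lists together, without the members, held 63 genes, of which 53 had a probe and 34 were tested. Of the 34, 28 were called higher and 4 lower, against 39.3% and 30.5% of all genes tested. Of these 53 genes, 21 were well above background on 3 thymic and 0 thyroid arrays, as were 7.73% of all probes.

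**Figure D5:**
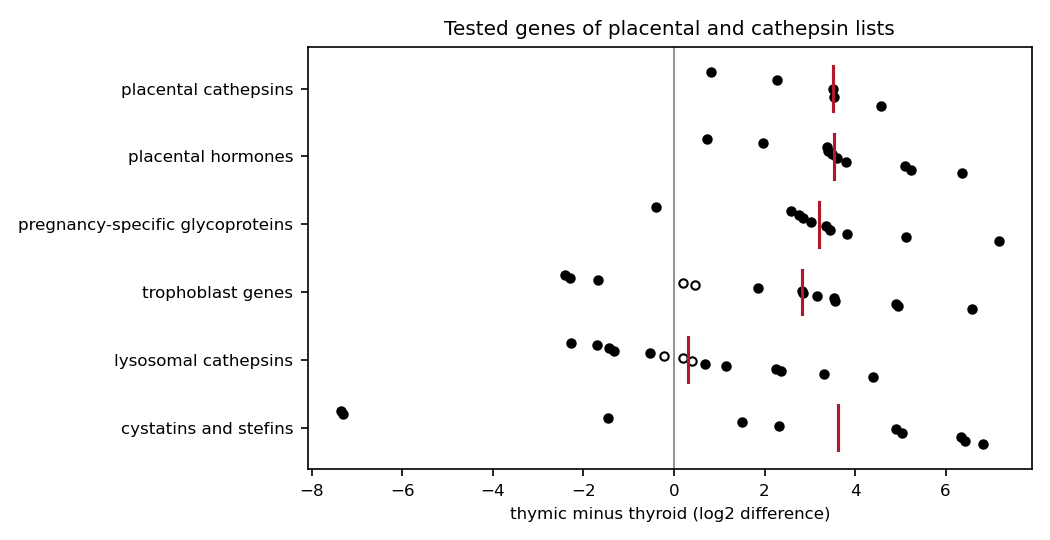
Thymic minus thyroid difference (log2) of the tested genes of each list, 1 point per gene, with the list's median as a red line; filled points passed an adjusted p of 0.05 and open points did not. The placental lists lie mostly above 0, and the lysosomal cathepsins fall on both sides.

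For each tested member, the tested genes with the most alike pattern were taken from 16188 named genes by Pearson's r over the 6 arrays, given as a description since 2 separated groups dominate it. For Ctsr these were Pgr and Hsd17b13 (both r = 1.00), for Ctsq Cbln4 and Orly (both 0.999), for Cts6 Defb36 (0.999) and Rab36 (0.998), and for Cts7 Kcnh7 and Sh2d1a (both 0.998). For Ctsm they were Prr22 (0.989) and Wipf3 (0.986). A pattern of high thymic and low thyroid arrays was common: 5348 genes had an r over 0.95 with Ctsr, but 133 with Ctsm.

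The labels matched the lineage genes, and marker genes of other cell types gave signal too. Whether that signal came from such cells or from the sorted epithelial cells was not tested. Of all genes tested, 39.3% were called higher in thymic cells and 30.5% lower. All 10 medullary thymic markers were called higher in thymic cells, Aire by 12.1 on the log2 scale, and 8 of 9 thyroid follicular markers were called lower. Ptprc, the gene of CD45, was higher in thymic cells by 4.05, and all tested markers of thymocytes (8 of 8), B cells (4 of 4) and myeloid cells (5 of 5) were called higher there, though 5 of the 8 thymocyte markers were with quantile normalization and 4 with normexp correction. Quantile normalization turned Cd3e, Cd4 and the B-cell gene Cd79a below 0, as median centring and the deposited value table did Cd3e. Their summed levels, relative to the 75th percentile, were 1.65 to 3.32 against 0.60 to 0.73 for thymocytes, 4.15 to 5.08 against 1.37 to 2.57 for B cells and 98.2 to 108 against 0.94 to 1.69 for myeloid cells, in thymic against thyroid arrays. Such sums add different probes, and the myeloid one is mostly Lyz2 (mean log2 level 6.68 in thymic and -0.06 in thyroid cells). All 6 endothelial markers were higher in thyroid cells, with summed levels of 0.52 to 0.60 in thymic and 322 to 470 in thyroid arrays. The part of these cells in the levels of the placental cathepsins and of the Ctla2 genes was not tested. The flag was set for 78.4% to 81.0% of probes per thymic sample, against 65.4% to 72.8% per thyroid sample.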

How the data were processed

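RNA of 3 thymic and 3 thyroid samples carried the dye Cy3, as the labels state. The scanner software was Agilent Feature Extraction, version 10.5.1.1, as the file headers state. In the deposited scanner files a spot's brightness is an intensity, background-subtracted and detrended per the file headers, with detection flags beside it. The authors' deposited value table holds a linear ratio, the processed signal over the median of its array. Control spots were left out, as were outlier spots (67 to 151 an array), and log2 signals of a probe's spots were averaged. Values were scaled to the array's 75th percentile. Where a gene had several tested probes, the one with the highest mean over the 6 arrays stood for it, and names came through a RefSeq table of GRCm38.p6, used for names, order and promoter sequences. The test was limma (version 3.58.1, R version 4.3.3), with lmFit, eBayes, 2 groups and no covariate, two-sided, after a test on simulated data. Promoters were aligned in Python 3.11.15, and figures were drawn with matplotlib 3.10.9.

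The members, the lists and the tests were chosen with earlier results of these data known. Named whatever their values were the members, 8 related genes of the region and Epcam, Ptprc, Aire and Tg, and from each list up to 3 genes per direction with the largest differences among those called. The alternatives were other background corrections, scalings, filters, probe rules, blocks, variances and weights, and leaving out each array. Replicate numbers do not pair the groups: deviations of same-numbered arrays correlated at 0.0066, -0.067 and -0.055. The number of arrays, 3 in each group, limits the precision.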

Additional observations from a re-analysis of the deposited data

How the results depend on the processing

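Over 21 other settings, Ctsq was called higher in thymic cells in 21 and Ctsr in 21, Cts6 in 20, Cts7 in 19 and Ctsm in 8. The count of members called, 5 as reported, was 2 with normexp correction and 3 with arrays not above background raised to their floor, a setting chosen after seeing the data. It was 4 to 5 when single arrays were left out. Ctsm lost its call without any 1 of the 3 thymic arrays, with a difference of 0.49 to 1.01 over the arrays left out, and turned to -0.49 with quantile normalization. Normexp gave 0.51 (adjusted p = 0.0623) for Cts6, 0.25 (0.285) for Cts7 and 0.01 (0.965) for Ctsm. With no filter 6 of the 8 members were called, and with probes required on all 6 arrays no member could be tested. Under that filter, 25 of 54 tested genes of the other lists were called higher, against 69 of 103, and 5035 of all genes, against 8410, as fewer genes enter. Quantile normalization moved the median of all genes by -0.15. Median centring moved it by -0.54 and gave 6105 genes higher and 11043 lower, against 8410 and 6517 as reported, and Ctsm was then 0.29 (adjusted p = 0.406). The deposited value table gave 10968 lower. With a replicate block all 5 members were called, Ctsm with an adjusted p of 0.0124, and no call among them changed. The causes were not tested. Signal over background limits Cts3, Cts8 and Ctsj, which did not pass the filter, and Cts7.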

Other observations

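Of all genes tested, 39.3% were called higher in thymic cells and 30.5% lower. Of 8 cystatins and stefins on the array, which inhibit cysteine cathepsins, 7 were called higher in thymic cells and 1 lower, with a median difference of 4.98. Of these 8, 5 passed the filter through the thymic arrays alone, and of all genes that did so 88.9% were called higher. The stefins, inhibitors inside the cell, were high among them: Stfa3, above background on 2 thyroid arrays, differed by 6.82 on the log2 scale. Stfa2 and Stfa2l1, well above background on no thyroid array, were at least 37.3-fold and at least 35.4-fold higher in thymic cells. The lower one was Cst3 (-1.47), the gene of secreted cystatin C. Ctla2a and Ctla2b were listed with these genes at first as inhibitors of the same proteases, which made 7 of 10 higher and 3 lower, with a median of 3.61.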
